A study of Mus musculus with 2 samples.

Results

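Periportal hepatocyte nuclei are described here in single-nucleus RNA sequencing of mouse liver 48 h after partial hepatectomy (PHx), an operation that takes out liver lobes and is followed by regrowth of those left. They were chosen by rank. Among barcodes with under 10% mitochondrial UMIs (unique molecular identifiers, one count per captured transcript), at least 2000 UMIs and at most 1 UMI summed over 9 genes of non-hepatocyte cells, the 15% with the highest share of UMIs from 8 genes, Hal, Sds, Cyp2f2, Gls2, Hsd17b6, Chrm3, Grm8 and Ncam2, were taken in each library. That gave 1080 of 14912 barcodes in the HKO library and 1350 of 14701 in the WT library, or 2430 of 29613 in all. The other 6119 gated nuclei in HKO and 7651 in WT are called other gated nuclei below, and were the set the periportal nuclei were compared with. Where a pair of values is joined by "against" within a library, it is periportal against other gated nuclei.

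The HKO library was made from Sox9HKO liver and the WT library from Sox9f/f liver, in which the Sox9 gene carries loxP sites. Both came from 12-week-old C57BL/6 mice at the same time after PHx. Each genotype had 1 library, so no difference has a replicate check, no test was possible, and genes were counted by size of change alone. The labels do not spell out HKO, and the Cre driver, the deleted part of Sox9, the number of animals pooled and the isolation of the nuclei are not given in the sources used here.

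Blood enters the liver lobule near the portal vein and leaves at the central vein, and hepatocytes along that path express different genes, a pattern called zonation. Periportal hepatocytes are known for urea synthesis, gluconeogenesis and amino acid breakdown. Pericentral hepatocytes, next to the central vein, respond to Wnt signals and are known for glutamine synthesis and drug metabolism by cytochrome P450 enzymes. Sox9 is a transcription factor known from bile duct cells, and periportal hepatocytes with a low level of it are known next to the portal tract.

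The 8 ranking genes made up a median of 0.333% of a periportal nucleus's UMIs in HKO and 0.365% in WT. Each HKO member held 6 to 79 of these UMIs with a median of 14, and each WT member 6 to 64 with a median of 13. The last nucleus inside the limit had a share of 0.2637% in HKO and 0.2692% in WT, and the first one outside 0.2637% and 0.2691%, so the limit falls within a continuum and not at a gap. The genes behind the rank differed between libraries. Sds supplied 24.4% of the ranking UMIs of HKO members and 6.76% of those of WT members, while Hal supplied 4.60% and 21.0%. These genes fixed the membership and are not described further.

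HKO periportal nuclei held a median of 3951 UMIs and the other HKO nuclei 4085, while WT periportal nuclei held 3446 and the other WT nuclei 3299. In HKO 3856 barcodes had under 2000 UMIs and could not enter the gate, against 288 in WT. The libraries shared 70 barcode sequences, 2 of them among the periportal nuclei of both. The median mitochondrial share was 0.0642% in HKO and 0.288% in WT periportal nuclei. The 10 macrophage markers outside the gate summed to 242 CPM in HKO periportal against 285 CPM in other HKO nuclei, and 261 against 310 CPM in WT, CPM being a set's count scaled to a common total of UMIs. The 12 cholangiocyte markers summed to 194 against 173 CPM in HKO and 238 against 194 CPM in WT. In the periportal nuclei of each library 3 of the 12, Krt19 and Cftr among them, had 0 UMIs, and the others had some. The 12 lymphocyte and dendritic markers summed to 30.5 against 48.3 CPM in HKO and 33.8 against 46.6 CPM in WT, the 13 endothelial markers to 188 against 172 CPM and 203 against 214 CPM, and the 12 stellate markers to 221 against 217 CPM and 231 against 236 CPM. Their part in the ratios below was not tested. Barcodes over 3 times the median depth were 0.556% of HKO and 2% of WT periportal nuclei. No doublet caller was run, and a droplet with 2 hepatocyte nuclei cannot be recognised by the gate.

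Sox9 (chromosome 11, 112782224 to 112787760) was low everywhere. Ranges in parentheses, here and below, are exact 95% limits that cover the error of counting alone. HKO periportal nuclei held 7.84 CPM (5.52 to 10.8) from 37 UMIs, other HKO nuclei 5.48 CPM (4.65 to 6.41) and HKO endothelial-marked barcodes, those with at least 4 UMIs of Stab2 and Ptprb, 4.43 CPM (3.10 to 6.13). WT periportal nuclei held 18.8 CPM (15.3 to 22.8) from 101 UMIs, other WT nuclei 9.71 CPM (8.64 to 10.9) and WT endothelial-marked barcodes 9.67 CPM (7.43 to 12.4). Periportal nuclei thus exceeded the other sets in WT beyond counting error, while the intervals overlapped in HKO. A Sox9 UMI was present in 3.06% of HKO periportal nuclei, 3.07% of HKO endothelial-marked barcodes, 6.37% of WT periportal nuclei and 4.92% of WT endothelial-marked barcodes. These shares are at unequal depths, the endothelial-marked barcodes having medians of 4372 UMIs in HKO and 3926 UMIs in WT. These barcodes also held hepatocyte RNA, with 2257 CPM of Alb in HKO and 5624 CPM in WT, against 2504 and 7077 CPM in other gated nuclei, and 12.2% of them in HKO and 12.1% in WT were over 3 times the median depth. They may include droplets with a hepatocyte nucleus and are no hepatocyte-free background. A 3′ tag outside the deleted part would not register the deletion, and where it lies is not stated in the sources used here. Spp1, a bile duct gene encoding osteopontin, had 2.33 against 3.08 CPM in HKO and 13.2 against 7.18 CPM in WT. Hes1, a Notch target, had 10.6 against 8.70 CPM in HKO and 25.5 against 16.8 CPM in WT. Spp1 was under the expression floor given below in both libraries, and Hes1 in HKO. Neither is read as a result for bile duct or Notch genes. Of the biliary and Notch list, 0 of 6 genes at the floor were past 2-fold in HKO over WT periportal nuclei. Their median log2 ratio was -0.16, against 0.21 over all genes. The list's periportal over other ratio differed between libraries past 1.5-fold for 0 of 6 genes, with a median difference of -0.06.

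The label was compared with lists of genes the ranking did not use. The lists were chosen with earlier results of these data known, so they are no independent check. Of 35 periportal genes outside the rule, 33 reached a mean of 20 CPM over the compared sets in each library. In HKO 8 of the 33 were higher past 1.5-fold in periportal than in other gated nuclei and 0 lower, where 0.769% of all 6371 genes were higher. In WT 11 of 33 were higher and 0 lower, where 1.19% of 6193 genes were. The list's median log2 ratio was 0.21 in HKO and 0.24 in WT, against -0.01 over all genes in each. Of the 33 genes, 8 in HKO and 11 in WT had a ratio below 0, the lowest being -0.28 and -0.15. Of 38 pericentral genes, 29 reached the floor in HKO and 17 of them were lower past 1.5-fold, against 1.44% of all genes. In WT 34 reached it and 19 were lower, against 1.92%. The pericentral median was -0.62 in HKO and -0.64 in WT, and no pericentral gene was higher past 1.5-fold in either library.

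**Figure D1:**
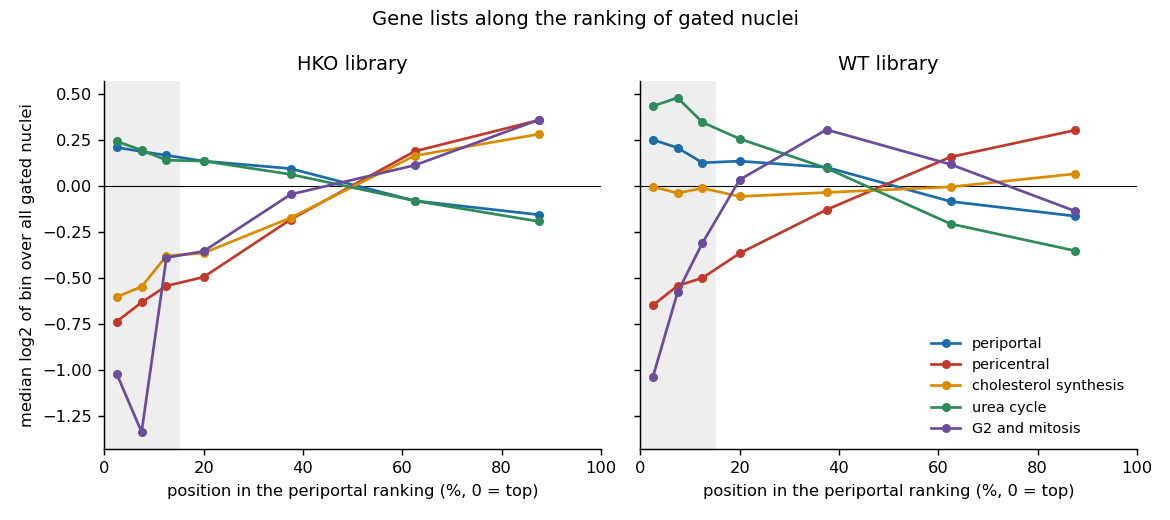
Median log2 ratio of each gene list in a bin of gated nuclei over all gated nuclei of the same library (vertical axis), by position in the ranking (horizontal axis, 0% is the most periportal; grey, the top 15%), with the HKO library left and the WT library right. Periportal and urea cycle genes decline and pericentral genes climb along the ranking in both libraries, while cholesterol synthesis genes climb from -0.60 to 0.28 in HKO and stay between -0.06 and 0.07 in WT.

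The change along the ranking was gradual. Cdh1, the E-cadherin that joins hepatocytes to their neighbours, had 123 CPM in the first 5% of HKO nuclei, 61.5 CPM at 25 to 50% and 13.3 CPM in the last 25%. In WT the same bins held 95.0, 40.2 and 9.27 CPM. Lhpp, a phosphatase gene of the pericentral list, climbed from 22.6 CPM in the first 5% to 227 CPM in the last 25% of HKO nuclei and from 24.0 to 233 CPM in WT. The gradient of Cps1, the carbamoyl phosphate synthetase that starts the urea cycle, was shallower, with 4522 CPM at the top and 3346 CPM at the bottom of the HKO ranking and 3060 and 1864 CPM in WT.

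Single nuclei overlapped widely. The periportal list without Alb took a median of 1.53% of UMIs in HKO periportal nuclei with quartiles of 1.35 and 1.73%, against a median of 1.29% with quartiles of 1.05 and 1.51% in other HKO nuclei. In WT the medians were 2.21% in periportal and 1.95% in other nuclei. The pericentral list took 0.749% in HKO periportal and 1.06% in other HKO nuclei, and 0.910% against 1.30% in WT. Ranked by 8 pericentral genes instead, 7 HKO members and 16 WT members, or 0.648% and 1.19%, were also in the top 15% of that ranking.

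The endothelial-marked barcodes were ranked by the same 8 genes for comparison. Their top 15% had 4 of 33 periportal genes higher in HKO and 6 of 33 in WT, where 0.806% and 2.07% of all genes were higher. Pericentral genes were lower there for 8 of 29 in HKO and 13 of 33 in WT, where 2.67% and 3.24% of all genes were. Their periportal medians were 0.17 in HKO and 0.18 in WT, and their pericentral medians -0.39 and -0.42. Free RNA and droplets with a hepatocyte nucleus cannot be told apart in these barcodes, and the part of free RNA in the values of the gated nuclei was not tested.

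Across all genes, 49 of 6371 were higher and 92 lower past 1.5-fold in HKO periportal nuclei, and 74 and 119 of 6193 in WT. Of 5831 genes at the floor in both libraries, 30 (0.514%) were higher in both, 60 (1.03%) lower in both, and 0 went opposite ways past that size. The 12 genes named on each side below had the largest changes by the smaller of their 2 ratios. They were taken from the genes past that size in both libraries, so their shared direction follows from the choice.

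The higher group was led by Cryl1, an enzyme of the L-gulonate pathway on chromosome 14 (57274993 to 57398529, GRCm38). It had 118 CPM in HKO periportal and 35.1 CPM in other HKO nuclei, a fold of 3.37 (3.04 to 3.75). In WT it had 132 against 33.4 CPM, a fold of 3.96 (3.59 to 4.36). Cdh1 (chromosome 8, 106603351 to 106670246) followed with 112 against 38.8 CPM in HKO and 86.6 against 26.3 CPM in WT. Both genes were higher in periportal nuclei of each library. Receptors and signals followed. Fgfr1, a fibroblast growth factor receptor, had 66.6 against 24.2 CPM in HKO and 45.0 against 10.6 CPM in WT. Nrg1, which encodes neuregulin, a ligand of ErbB receptors, had 83.1 against 44.3 CPM in HKO and 45.7 against 20.1 CPM in WT. Plxna2, a semaphorin receptor, had 247 against 126 CPM in HKO and 290 against 115 CPM in WT. All 3 were higher in periportal nuclei of each library, with a smaller fold in HKO than in WT.

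Metabolic genes of this group were Etnppl, a phospholyase that breaks down phosphoethanolamine, Hsd17b13, an enzyme of lipid droplets, Sfxn1, a mitochondrial serine carrier, and Gldc of the glycine cleavage system. Hsd17b13 had 330 CPM in HKO periportal and 141 CPM in other HKO nuclei, and 200 against 86.2 CPM in WT. Gldc had 361 against 183 CPM in HKO and 304 against 160 CPM in WT. Sfxn1 had 205 against 102 CPM in HKO and 167 against 78.8 CPM in WT. Etnppl, lower in level, had 46.4 against 18.6 CPM in HKO and 64.7 against 21.6 CPM in WT. Regulators of transcription in the group were Tcf7l1 and Zbtb7c, and the last gene was Rasgef1b, a Ras exchange factor. Tcf7l1, a TCF protein known to repress Wnt targets, had 315 against 136 CPM in HKO and 167 against 63.5 CPM in WT. Zbtb7c had 95.8 against 52.6 CPM in HKO and 277 against 118 CPM in WT.

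**Figure D2:**
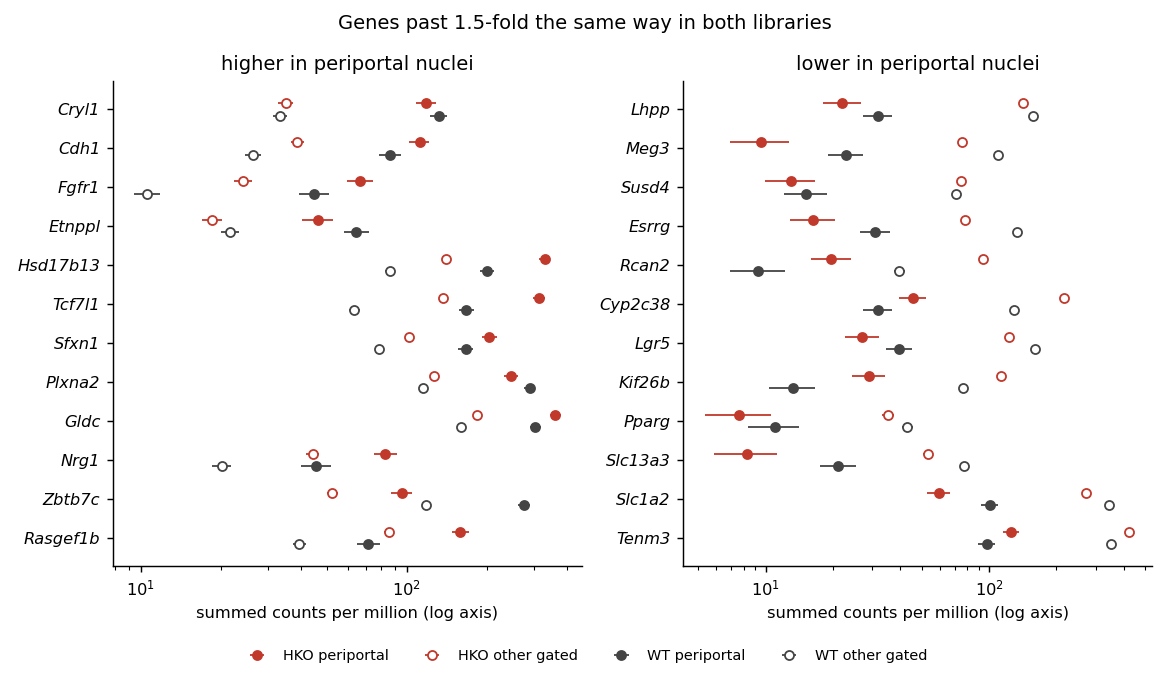
CPM (horizontal, log axis) of the 12 genes with the largest higher (left) and lower (right) ratios in periportal nuclei of both libraries, with filled points for periportal and open points for other gated nuclei, HKO in red above WT in grey; bars are exact 95% Poisson intervals. The genes were chosen for a change the same way in both libraries, so the filled points lie on the same side of the open ones by choice. Cryl1 had 118 against 35.1 CPM in HKO and 132 against 33.4 CPM in WT.

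The lower group held Wnt-related and other pericentral genes. Lhpp (chromosome 7, 132610638 to 132706420) had 22.0 CPM in HKO periportal and 142 CPM in other HKO nuclei, which were 6.43-fold higher (5.29 to 7.89). In WT it had 31.8 against 157 CPM, the other nuclei being 4.94-fold higher (4.24 to 5.78). Its annotation overlaps Fgfr2 on the opposite strand, and whether the counting used strand is not stated in the sources used here. Lgr5, the R-spondin receptor of Wnt-responsive cells, had 27.1 against 123 CPM in HKO and 39.6 against 160 CPM in WT. Slc1a2, a glutamate transporter, had 59.6 against 270 CPM in HKO and 101 against 343 CPM in WT. Both were among the 8 pericentral genes used for the second ranking. Slc13a3, a dicarboxylate carrier, was at 8.27 against 53.5 CPM in HKO and 21.2 against 76.9 CPM in WT, a larger fold in HKO.

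Meg3, a long noncoding RNA of an imprinted locus (chromosome 12, 109541001 to 109571726), had 9.54 CPM in HKO periportal and 75.6 CPM in other HKO nuclei, and 22.9 against 109 CPM in WT. Among transcription factors, Esrrg, an orphan nuclear receptor, had 16.3 against 77.9 CPM in HKO and 30.9 against 133 CPM in WT. Pparg, a nuclear receptor of fat storage, was low throughout, at 7.63 against 35.3 CPM in HKO and 11 against 43.1 CPM in WT. The rest of the group was Susd4, a complement regulator, Rcan2, an inhibitor of calcineurin, Cyp2c38, Kif26b and Tenm3. Tenm3, a teneurin adhesion protein, had the highest level of these, 125 against 424 CPM in HKO and 97.4 against 350 CPM in WT. Airn, an RNA antisense to the imprinted Igf2r, is not among the 12 and was picked after its values were seen. It had 189 against 607 CPM in HKO and 92.0 against 459 CPM in WT, and its reads and those of Igf2r could not be told apart without strand.

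In the Wnt list, 12 of 23 genes reached the floor in each library, and 1 was higher and 4 lower in both, where 0.514% of all genes were higher and 1.03% lower in both. The higher one was Tcf7l1. The lower ones were Lhpp, Tbx3, a target gene of Wnt, Notum, a secreted enzyme that inactivates Wnt, and Rnf43, a ligase that removes Wnt receptors. Tbx3 had 10.8 against 47.1 CPM in HKO and 14.7 against 46.1 CPM in WT. Notum had 18.9 against 51.5 CPM in HKO and 23.6 against 53.7 CPM in WT. Axin2, the most used Wnt target, stayed under the floor, at 3.18 against 12.4 CPM in HKO and 6.69 against 24.1 CPM in WT. Ctnnb1, which encodes beta-catenin, had log2 ratios of -0.19 in HKO and -0.36 in WT. The 8 pericentral ranking genes were all lower, 7 of them past 1.5-fold in each library, with medians of -1.46 in HKO and -1.18 in WT. Glul, the glutamine synthetase of the last cells before the central vein, had 41.3 against 152 CPM in HKO and 91.6 against 283 CPM in WT.

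Among P450 and conjugation enzymes, Cyp2c38, Cyp2c67, Cyp2c68 and the sulfotransferase Sult2a8 were lower past 1.5-fold in both libraries, out of 20 genes at the floor in each, where 1.03% of all genes were lower in both. Cyp2c38 had 45.6 against 216 CPM in HKO and 31.8 against 130 CPM in WT. Cyp2c genes are close copies, and how reads matching several of them were counted is not stated in the sources used here. Cyp39a1, an oxysterol hydroxylase, had 96.7 against 62.1 CPM in HKO, past 1.5-fold, and 16.5 against 15.9 CPM in WT. Of the bile acid genes, Cyp27a1, which starts the alternative synthesis route, and the uptake carrier Slco1b2 were lower in both. Cyp27a1 had 361 against 628 CPM in HKO and 265 against 444 CPM in WT. The other bile acid genes, the export pump gene Abcb11 among them, stayed within 1.5-fold.

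Amino acid breakdown genes were higher for 6 of 30 in HKO, with 0 lower, and for 6 of 29 in WT, with 1 lower. Over all genes 0.769% were higher and 1.44% lower in HKO, and 1.19% higher and 1.92% lower in WT. The 3 enzymes that follow Hal in histidine breakdown were among them. Uroc1 had 502 CPM in HKO periportal and 296 CPM in other HKO nuclei, and 431 against 253 CPM in WT. Amdhd1 had 113 against 63.7 CPM in HKO and 272 against 140 CPM in WT. Ftcd had 493 against 286 CPM in HKO and 425 against 261 CPM in WT. Thus the log2 ratios of these 3 genes lay between 0.76 and 0.82 in HKO and between 0.70 and 0.96 in WT. Sdsl, a close relative of the ranking gene Sds, had 32.4 against 13.8 CPM in HKO and was under the floor in WT, so reads shared with Sds cannot be told apart from its own. Bhmt, which remethylates homocysteine, had 667 against 647 CPM in HKO and 230 against 150 CPM in WT. The gene lower in WT was Prodh, which starts proline breakdown, at 40.1 against 63.7 CPM.

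Urea cycle genes had smaller ratios in HKO than in WT. Of 7 at the floor, 0 were past 1.5-fold in HKO and 3, Asl, Arg1 and Ass1, in WT, with list medians of 0.21 in HKO and 0.57 in WT, where 0.769% and 1.19% of all genes were higher. Arg1, the arginase that releases urea, had 888 CPM in HKO periportal and 699 CPM in other HKO nuclei, a fold of 1.27 (1.23 to 1.31). In WT it had 1070 against 682 CPM, a fold of 1.57 (1.52 to 1.61). Ass1, which makes argininosuccinate, had 645 against 559 CPM in HKO and 299 against 199 CPM in WT. The ratio was lower in HKO than in WT for 6 of the 7, Slc25a13 being the exception at 0.02 against 0.00. For all 7 the difference between the libraries stayed within 1.5-fold. The levels of Ass1 and Asl were higher in HKO in both sets of nuclei. Gluconeogenesis genes leaned higher in periportal nuclei, with medians of 0.37 over 17 genes in HKO and 0.17 over 15 in WT. Fbp1, which removes a phosphate from fructose bisphosphate, had 663 against 462 CPM in HKO and 661 against 456 CPM in WT. Pklr, a glycolytic enzyme of the same list, was the 1 gene past 1.5-fold, at 44.7 against 28.0 CPM in HKO. Pck1, the entry enzyme of gluconeogenesis, had log2 ratios of 0.14 in HKO and 0.28 in WT.

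Cholesterol synthesis genes had lower ratios in HKO than in WT. In HKO 16 of 25 genes of the list reached the floor, all 16 were below 0, 7 were lower past 1.5-fold, and the median was -0.55. In WT 23 reached it, 0 were past 1.5-fold and the median was -0.03. Over all genes 1.44% were lower past 1.5-fold in HKO and 1.92% in WT. For each of the 16 genes at the floor in both libraries the ratio was lower in HKO, by a median of 0.53 on the log2 scale. Over all 5831 genes, 15 (0.257%) had a ratio higher in HKO by over 1.5-fold and 25 (0.429%) a ratio lower by over 1.5-fold, and 7 of the 25 were Hmgcs1, Fdps, Nsdhl, Msmo1, Fdft1, Sqle and Stard4 of this list. No test of the difference between libraries was possible.

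Hmgcs1 (chromosome 13, 119690379 to 119708260), which makes HMG-CoA for the mevalonate pathway, had 19.3 CPM in HKO periportal and 41.1 CPM in other HKO nuclei, which were 2.13-fold higher (1.72 to 2.67). In WT it had 112 CPM in both sets. Fdft1, squalene synthase, had 27.3 against 52.1 CPM in HKO and 105 against 110 CPM in WT, and its annotation overlaps Ctsb on the opposite strand. Msmo1 and Nsdhl, which remove methyl groups from sterols, were alike. Msmo1 had 30.3 against 59.6 CPM in HKO and 103 against 102 CPM in WT. Nsdhl had 14.2 against 31.1 CPM in HKO and 72.3 against 68.7 CPM in WT. Squalene epoxidase, Sqle, had 21.0 against 31.2 CPM in HKO and 79.7 against 65.8 CPM in WT, where it was the higher in periportal nuclei. The HKO ratios nearest 0 were those of Ebp at -0.04 and Dhcr7 at -0.08.

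**Figure D3:**
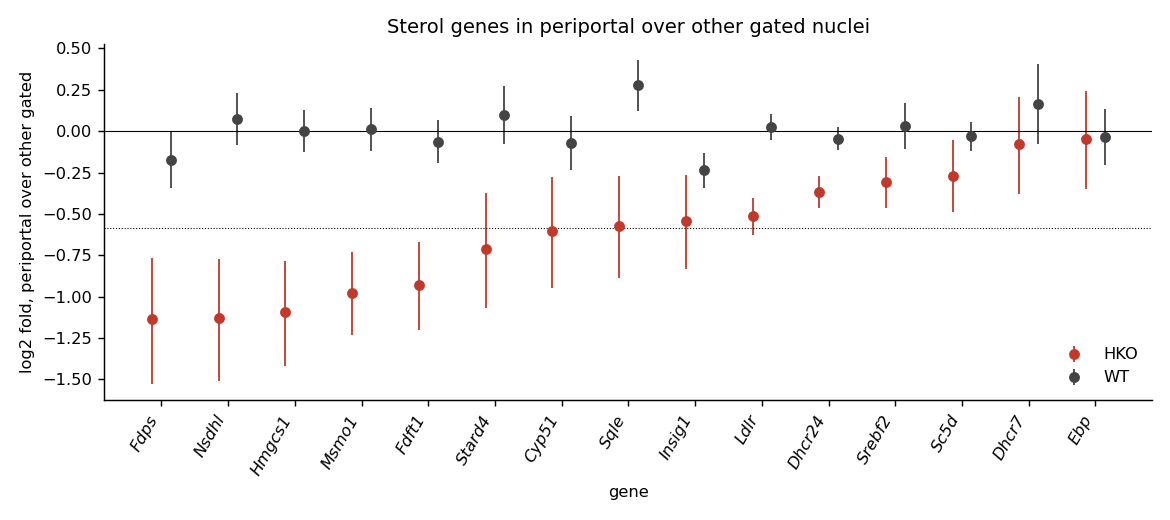
Log2 fold of periportal over other gated nuclei (vertical) for 15 of the 16 cholesterol synthesis genes at 20 CPM in both libraries (horizontal, ordered by the HKO fold), HKO in red left of WT in grey, with exact 95% intervals of the counts; the dotted line marks 1.5-fold lower. The HKO points lie below the WT points for all 15 genes shown, and 7 HKO points lie below the dotted line.

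Summed over the list, these genes took 845 CPM (819 to 872) in HKO periportal and 1215 CPM (1202 to 1228) in other HKO nuclei. In WT they took 2183 CPM (2144 to 2223) and 2207 CPM (2190 to 2224). The HKO list median was -0.57 without cycling nuclei and -0.55 with other nuclei weighted to the depth of the members. It was -0.48 when only the 5 enzyme genes ranked the nuclei, and -0.56 when only Chrm3, Grm8 and Ncam2 did. At a floor of 50 CPM 0 of the genes left in HKO were past 1.5-fold. In endothelial-marked barcodes ranked the same way the list's median was -0.31 over 11 genes in HKO, with 4 lower past 1.5-fold. In WT it was 0.15 over 23 genes with 0 lower. Over all genes 2.67% were lower there in HKO and 3.24% in WT. The part of free RNA in the difference was not tested.

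Fat metabolism genes leaned the other way by small amounts. Of 19 fatty acid oxidation genes at the floor in both libraries 17 had a higher ratio in HKO than in WT, and of 19 fatty acid synthesis genes 16 did, with median differences of 0.19 and 0.10. These counts are by sign alone, and the same share over all genes was not counted. Past 1.5-fold the ratio was higher in HKO for 2 of 19 in each list and lower for 0, where 0.257% of all 5831 genes were higher. The list medians themselves were 0.05 in HKO and -0.10 in WT for oxidation, and -0.01 and -0.17 for synthesis. Lpin1, a phosphatidate phosphatase and coactivator of fat oxidation genes, had 685 CPM in HKO periportal and 548 CPM in other HKO nuclei, and 26.6 against 38.3 CPM in WT. Acacb, the acetyl-CoA carboxylase at mitochondria, had 172 against 152 CPM in HKO and 79.9 against 117 CPM in WT. Acaa1b, a peroxisomal thiolase, had 110 against 111 CPM in HKO and 76.4 against 124 CPM in WT. So the last 2 genes differed little between periportal and other gated nuclei in HKO and were lower in periportal nuclei of WT. Abcg8, a sterol exporter, and Meis1, a homeobox factor, were also higher in the HKO ratio, Abcg8 with 62.1 against 52.3 CPM in HKO and 85.1 against 120 CPM in WT. Among genes of a mean of 50 CPM or more, the ratios lowest in HKO relative to WT, besides those of sterol genes, were those of Aox3, Ddah1 and Cyp2c29. Aox3, an aldehyde oxidase, had 342 against 364 CPM in HKO and 1798 against 1081 CPM in WT. Ddah1, which degrades methylated arginine, had 42.2 against 39.2 CPM in HKO and 115 against 62.3 CPM in WT. Both were level in HKO and higher in periportal nuclei of WT.

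**Figure D4:**
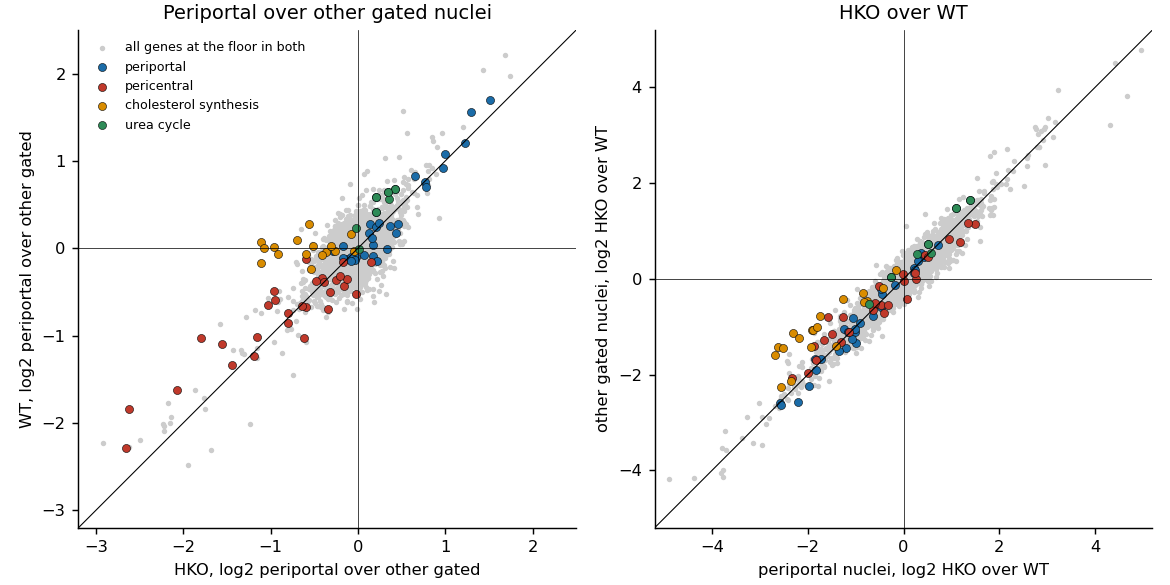
Left, log2 ratio of periportal over other gated nuclei in HKO (horizontal) and in WT (vertical) for genes at 20 CPM in both libraries. Right, log2 ratio of HKO over WT in periportal nuclei (horizontal) and in other gated nuclei (vertical). Grey points are all genes, coloured points 4 lists, and the line marks equal ratios. Cholesterol synthesis genes leave the line in both panels, with medians on the left of -0.55 in HKO against -0.02 in WT over 16 genes. The list's HKO over WT medians were -1.90 over 19 genes in periportal and -1.06 over 22 genes in other nuclei. The right panel shows only genes at 20 CPM in both comparisons, so these need not be the medians of its points.

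Transcripts of proliferation were less frequent in periportal nuclei of both libraries. Each nucleus was thinned to 2000 UMIs and counted if it held at least 3 UMIs of a list. For G2 and mitosis genes this gave 2.5% (1.65 to 3.62, exact binomial) of 1080 HKO periportal nuclei and 7.26% (6.62 to 7.93) of other HKO nuclei. In WT it gave 7.41% (6.07 to 8.94) of 1350 periportal and 14% (13.2 to 14.8) of other nuclei. For S phase genes the shares were 8.43% in HKO periportal and 15.4% in other HKO nuclei, and 19.3% against 27.9% in WT. Without thinning the G2 and mitosis shares of periportal nuclei were 5% in HKO and 15% in WT. Endothelial-marked barcodes had shares of 9.94% in HKO and 18.8% in WT for G2 and mitosis, at median depths of 4372 and 3926 UMIs.

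Of 30 G2 and mitosis genes 11 reached the floor in WT, and these 11 were lower past 1.5-fold in periportal nuclei. In HKO 2 reached it, Top2a and Diaph3, and both were lower too. Top2a, the DNA topoisomerase of dividing cells, had 16.3 CPM in HKO periportal and 37.6 CPM in other HKO nuclei, and 58.0 against 95.0 CPM in WT. In S phase genes 0 of 8 in HKO and 5 of 13 in WT were lower, with medians of -0.26 and -0.49, where 1.44% and 1.92% of all genes were lower. These medians are over different genes. Over the 8 at the floor in both libraries they were -0.26 in HKO and -0.28 in WT. Mcm6, part of the replicative helicase, had 28.1 against 42.7 CPM in WT. Along the ranking, Top2a in WT was lowest in the first 5%, at 36.6 CPM, and highest at 25 to 50%, at 107 CPM, with 84.5 CPM in the last 25%. In HKO it was highest in the last 25%, at 45.1 CPM. With Chrm3, Grm8 and Ncam2 alone as ranking genes, 0 of these G2 and mitosis genes were past 1.5-fold in either library, and the list medians were -0.52 in HKO and -0.22 in WT.

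The periportal nuclei that passed this limit for G2 and mitosis UMIs lay between the other members and the other gated nuclei in the periportal list, and below both in the pericentral list. Without Alb, the periportal list summed to 13925 CPM in the 27 such HKO nuclei, 15640 CPM in the other HKO members and 12951 CPM in other HKO nuclei. In WT it summed to 20319 CPM in the 100 such nuclei, 22028 CPM in the other WT members and 19345 CPM in other WT nuclei, so in both libraries the sum was nearer that of the other gated nuclei. The pericentral list summed to 7002, 7608 and 11077 CPM in these 3 sets of HKO, and to 8833, 9195 and 13417 CPM in those of WT.

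**Figure D5:**
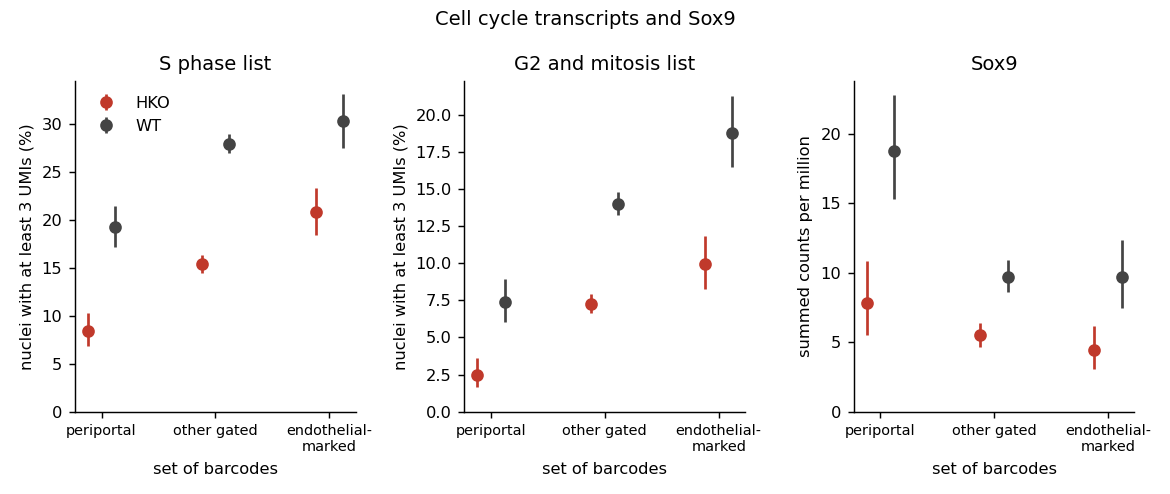
Share of barcodes with at least 3 UMIs of S phase genes (left) and of G2 and mitosis genes (middle) after thinning to 2000 UMIs, and Sox9 in CPM (right), for periportal nuclei, other gated nuclei and endothelial-marked barcodes, HKO in red left of WT in grey; bars are exact 95% intervals of the counts. Periportal nuclei have the lowest cell cycle shares in each library, and Sox9 is highest in WT periportal nuclei at 18.8 CPM.

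HKO periportal nuclei were also set against WT periportal nuclei directly. Of 6301 genes, 225 (3.57%) were higher and 305 (4.84%) lower past 2-fold in HKO, so that 42.5% of calls were higher. With TMM scaling the counts were 140 and 422, or 24.9% higher. The median log2 ratio over all genes was 0.21 under CPM and 0.03 under TMM, and ratios below are read against it. In other gated nuclei 216 (3.39%) were higher and 319 (5.01%) lower. Barcode depth, the mitochondrial share and the ranking genes differ between the libraries as given above, and their part in these ratios was not tested.

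The largest ratios between the libraries were large in other gated nuclei too, some more and some less than in periportal nuclei. Cux2, a homeobox factor known in mouse liver for sex-biased expression, had 72.5 CPM in HKO and 1.86 CPM in WT periportal nuclei, with log2 ratios of 4.95 in periportal and 4.77 in other nuclei. Lepr, the leptin receptor, had 47.5 CPM in HKO and 1.67 CPM in WT periportal nuclei, with ratios of 4.46 and 4.17. Zbtb16 and Fkbp5, both induced by glucocorticoids, had 1742 and 1321 CPM in HKO against 194 and 151 CPM in WT periportal nuclei. The clock gene Per1 had 71.6 CPM in HKO and 8.74 CPM in WT. At the other end, the interferon-induced Iigp1 had 123 CPM in HKO against 1678 CPM in WT, with ratios of -3.76 in periportal and -3.99 in other nuclei. Saa2, an acute phase protein gene with close copies, had 433 CPM in HKO and 5707 CPM in WT, with ratios of -3.72 in periportal and -3.17 in other nuclei. Scd1, a fatty acid desaturase, and Nr0b2, a bile acid-induced repressor, had 6.15 and 4.88 CPM in HKO against 93.1 and 73.8 CPM in WT.

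Among the other genes at the ends were Selenbp2 and Mfsd2a, higher in HKO, and Mup11, Mup7, Igtp, Dab1 and Orm2, lower in HKO. Mfsd2a, a lipid transporter, had 197 CPM in HKO and 23.8 CPM in WT periportal nuclei. Mup11, one of the near-identical major urinary protein genes whose reads may be shared, had 5.09 CPM in HKO and 115 CPM in WT. Igtp, an interferon-induced GTPase, had 7.42 CPM in HKO and 103 CPM in WT. Dab1, an adaptor of reelin signalling, had 3.18 CPM in HKO and 43.5 CPM in WT.

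Lpin1, Pcdh11x and Cyp4a10 were among those with a larger ratio in periportal nuclei. Lpin1 was 25.8-fold higher (21.8 to 30.7) in HKO than in WT periportal nuclei and 14.3-fold higher in other nuclei. Pcdh11x, a protocadherin gene of the X chromosome, had 128 CPM in HKO and 5.95 CPM in WT periportal nuclei, a fold of 21.6 (15.1 to 31.9), and 50.4 against 5 CPM in other nuclei. In HKO it was 2.55-fold higher (2.31 to 2.81) in periportal than in other nuclei, and in WT the fold was 1.19 (0.785 to 1.75). Cyp4a10, a fatty acid hydroxylase induced by PPAR alpha, had 44.9 CPM in HKO and 1.86 CPM in WT periportal nuclei, and 32.3 against 4.44 CPM in other nuclei. The cholesterol synthesis list had a median of -1.90 in periportal nuclei, 14 of 19 genes being lower past 2-fold, and of -1.06 in other nuclei, where 13 of 22 were. These medians are over different genes. For the 16 genes at the floor within both libraries, the median difference of periportal from other nuclei was -0.53. Over all genes 4.84% were lower past 2-fold in periportal and 5.01% in other nuclei. Hmgcs1 was 5.81-fold higher (4.65 to 7.33) in WT than in HKO periportal nuclei and 2.72-fold higher in WT among other nuclei. Interferon-induced genes had medians of -2.34 in periportal and -2.23 in other nuclei, acute phase and complement genes -1.09 and -0.93, and urea cycle genes 0.52 and 0.55.

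The other lists had at most 1 gene past 1.5-fold in each direction in a library, periportal against other gated nuclei. Over all genes 0.769% were higher and 1.44% lower in HKO, and 1.19% higher and 1.92% lower in WT. A list's 1 gene is not read as a result for that list. Acute phase and complement genes had 1 of 34 lower past 1.5-fold in HKO, Saa2, and 0 of 34 in WT, with medians of -0.03 and -0.05. Liver transcription factors had 0 higher and 1 lower, Tox, of 26 in HKO, and 1 higher and 1 lower, Tox again, of 25 in WT. Tox had 182 against 305 CPM in HKO and 94.4 against 259 CPM in WT. The higher one was Esr1, the estrogen receptor alpha, with 737 against 597 CPM in HKO and 389 against 246 CPM in WT. Growth factor receptors and binding proteins had 0 of 22 past 1.5-fold in HKO and 1 of 19, Igfbp1, lower in WT. Interferon-induced genes had 0 of 8 in HKO and 1 of 17, Cd274, lower in WT. Biliary and Notch genes had 0 of 6 in HKO and 1 of 7, Hes1, higher in WT. Lipoprotein, clock and YAP genes had 0 past 1.5-fold in either library.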

How the data were processed

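The libraries were 10x 3′ single-nucleus libraries of nuclear RNA. The values are raw UMI counts per gene and barcode as deposited, made with Cell Ranger 5.0.0 per the file headers. GRCm38, Seurat 3.2.0 and STAR appear in the submitters' processing notes, without their roles. Whether introns or strand were used in counting was not stated in the sources used here. Of 27998 genes, 27645 matched the GENCODE annotation of GRCm38, which gave the coordinates.

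Barcodes were gated as in the opening, by Stab2, Ptprb, Adgre1, Timd4, Reln, Ntm, Skap1, Pax5 and Flt3. No doublet caller was run. Counts were summed per set and scaled to CPM, and ratios are log2 of CPM with a pseudocount of 0.5 added, over genes of mean 20 CPM or more. Genes were counted past 1.5-fold within a library and past 2-fold between libraries. Intervals are exact at 95% (conditional for ratios, Poisson for levels, Clopper-Pearson for shares) and hold counting error alone. With 1 library a group there is no SD and no test.

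The members and gene lists were chosen with earlier results of these data known. Named were the 12 highest and 12 lowest genes past 1.5-fold in both libraries, the 10 highest and 10 lowest HKO over WT ratios, the 6 highest and 6 lowest differences between the libraries' ratios at a mean of 50 CPM or more, up to 4 genes of each list, and Sox9. Rule, gate, mitochondrial, X-inactivation, Y-linked and unnamed genes were left out. Other list members, and Airn and Igf2r, were named after their values were seen. A few genes that the rule or the lists include are not reported here. In simulated counts, 97.5 to 100% of changed genes above the floor were recovered, and 0% of unchanged ones were called. These counts held counting error alone, with no variation between nuclei, animals or libraries, so the 0% is no error rate for the real comparisons. Over all lowered genes, those taken under the floor included, 70 to 84% were recovered. Alternatives changed the ranking genes, the limit, the gate, the floor, the scaling, the thinning and the nuclei compared. TMM factors came from edgeR 4.0.16 in R 4.3.3, and the rest from Python 3.11.15 with pandas 2.3.3, scipy 1.17.1, numpy 2.4.6 and matplotlib 3.10.9.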

Additional observations from a re-analysis of the deposited data

How the results depend on the processing

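No paired analysis was possible because each genotype had 1 library. Of 326 values of the main results under alternatives, 294 moved by less than the limits set for them, 32 by more and 0 reversed. Counts of genes, CPM levels and shares have no sign to reverse, and a reversal was counted only for a main value past 1.5-fold. So only the pericentral medians, -0.62 in HKO and -0.64 in WT, could have done so. The periportal medians, 0.21 and 0.24, could not. Alternatives that changed only the other gated nuclei could not alter periportal Sox9 or the HKO over WT counts. Those unchanged values are among the 294, so the 294 overstates how much was put to a check. The G2 and mitosis share of periportal nuclei was 5% without thinning, 1.11% when thinned to 1000 UMIs, 4.91% at 2 UMIs and 1.53% in the top 10% in HKO, and 15% without thinning, 3.48% at 1000 UMIs and 17.1% at 2 UMIs in WT. The S phase share was 27.1%, 2.5% and 21.9% under the first 3 of these in HKO, and 42.5%, 6.74% and 37.4% in WT, with 17.0% in the top 10% of WT. Genes higher past 1.5-fold in HKO numbered 361 at a floor of 1 CPM, 28 at 50 CPM and 99 against the bottom 50% of the ranking, and lower ones 698 at 1 CPM, 168 at 10 CPM, 49 at 50 CPM and 143 against the bottom 50%. In WT 359 were higher at 1 CPM and 112 against the bottom 50%, and 755 were lower at 1 CPM, 203 at 10 CPM, 64 at 50 CPM and 76 with Chrm3, Grm8 and Ncam2 alone as ranking genes. Between the libraries 140 were higher in HKO under TMM, 707 at 1 CPM and 135 at 50 CPM, and 819 were lower at 1 CPM and 177 at 50 CPM. A floor decides how many genes are compared; the other causes were not tested. Of 6210 ratios of single genes within a library under alternatives, 461 moved by more than their limits and 1 reversed. Of 3105 between the libraries, 172 moved and 0 reversed. A gene could count as reversed only if its main ratio was past the fold used. The 1 reversed value was that of Casc5, a G2 and mitosis gene, with a log2 ratio of 0.028 in HKO without cycling nuclei. Depth limits low genes such as Sox9, and the 3856 shallow HKO barcodes were outside the gate.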
